A study of Rattus norvegicus with 12 samples.

Results

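Sinusoidal endothelial cells of the rat liver were compared between the DA and LEW strains. The cells were selected on the unique molecular identifiers (UMIs) of 8 markers, Lyve1, Fcgr2b, Bmp2, Ramp2, Gpr182, Fam167b, Aqp1 and Kdr. A cell was taken when its 8 markers summed to at least 5 UMIs and to at least 0.2% of its UMIs, and when the stellate cell genes Ecm1, Col3a1, Colec11 and Pth1r summed to fewer than 3. This gave 1600 of the 21819 cells that had at least 2000 UMIs and at most 40% of them in mitochondrial genes. The cells came from total liver homogenate (TLH) of 4 healthy male rats, 2 of the inbred Dark Agouti (DA) strain and 2 of the inbred Lewis (LEW) strain. The labels name no treatment, but the deposited data of a DA nuclei library, used below, carry SHAM in their name. The labels do not explain this word. DA-1 gave 101 cells, DA-2 gave 843, LEW-1 gave 434 and LEW-2 gave 222. Nuclei from 4 additional livers, 2 of each strain, and immune-enriched libraries (liver homogenate depleted of parenchymal cells by low-speed centrifugation, with further washing and removal of red blood cells) from 1 rat of each strain served as further readings. The labels give an age of 8 to 10 weeks, while the deposited TLH data carry 10 weeks in the names of the DA rats and 13 weeks in those of the LEW rats. A higher age for all rats stands in the methods. Strain and age cannot be told apart here.

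Sinusoidal endothelial cells line the liver sinusoids with a thin wall that is pierced by fenestrae and lacks a regular basement membrane. They clear macromolecules and immune complexes from the blood through scavenger and Fc receptors, among them the products of Stab2 and Fcgr2b. They also send signals to hepatocytes and stellate cells, such as Bmp2, which sets hepatic iron handling, and they present antigen on MHC molecules. Kupffer cells, the resident macrophages, share the sinusoid with them.

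The 8 markers chose the cells, so their levels are a description without a test. Lyve1, the hyaluronan receptor, stood at 971, 1242, 1154 and 958 CPM (counts of a gene scaled to 1000000 UMIs summed over the selected cells of a rat) in DA-1, DA-2, LEW-1 and LEW-2, with no order by strain. Fcgr2b, the inhibitory Fc receptor, stood at 565 and 617 CPM in the DA rats and at 915 and 972 CPM in the LEW rats. Fam167b had 512 and 536 CPM in DA and 900 and 866 CPM in LEW, and Ramp2, a partner of the adrenomedullin receptor, had 130 and 214 CPM in DA and 414 and 365 CPM in LEW. The water channel gene Aqp1 was lower in LEW, at 207 and 184 CPM against 264 and 407 CPM in DA. Bmp2 had 333 and 528 CPM in DA and 640 CPM in each LEW rat, Gpr182 ranged from 179 to 302 CPM, and Kdr, the VEGF receptor 2 gene, from 484 to 635 CPM without an order by strain. The genes used to leave cells out were low, with Ecm1 at 59 to 94 CPM, Col3a1 at 19.7 to 65.1, Colec11 at 44.7 to 67.8 and Pth1r at 13.1 to 20.3.

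Genes that the selection did not use carried the endothelial label in part. Eng and Cdh5, genes of the endothelial surface and its junctions, had 356 to 453 CPM and 93.5 to 199 CPM in the selected cells, against 30.5 to 50.7 and 20.3 to 25.6 CPM in the other cells of the same rats. Ctsl, a lysosomal protease, had 1191 to 2593 CPM against 469 to 576 CPM, and Oit3 had 72.6 to 114 CPM against 3.77 to 4.98 CPM. Stab2 was found in 2.97% of the DA-1 cells (exact 95% binomial interval 0.617 to 8.44%) and in 8.99% of the LEW-1 cells (6.47 to 12.1%), against 0.267% and 0.119% of the other cells, at similar median depths of 2419 and 2296 UMIs in the selected and 2307 and 2467 UMIs in all kept cells. The shares of DA-2 and LEW-2 are not given here, and Stab2 did not pass between the strains, as given below. Stab1 and Clec4g, also used as markers of this cell type, stayed at 0 to 5.42 CPM. Vwf, of larger vessels, had 1.81 to 7.17 CPM. Intervals here cover counting error only.

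Cells with 4 marker UMIs, which were left out, numbered 24, 94, 34 and 18 in the order above and had 1000 to 1152 CPM of Ctsl. Cells with 5 marker UMIs, which were taken, numbered 9, 64, 9 and 9 and had 897 to 1880 CPM of Ctsl. Ctsl was higher in the cells just inside the limit in DA-2, LEW-1 and LEW-2, and lower in DA-1. A further 20 to 175 cells per rat met the marker limits but were left out for stellate cell UMIs.

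By the estimate given here, free RNA made up most of the UMIs of these cells. The 4 libraries held 61441846 to 92484173 UMIs, and the selected cells 246047 UMIs in DA-1, 2093287 in DA-2, 1067922 in LEW-1 and 553228 in LEW-2. Background was read from barcodes with fewer UMIs than the library median, of which 8.34 to 19.1% had a marker UMI. Whether these held free RNA or cells was not tested. Hepatocyte genes, a list of 33 with Alb, Apoa1 and Cyp2e1, made up 13.1 to 15.8% of the UMIs in the selected cells and 16 to 19.0% in the background. Scaling the background to 7 plasma protein genes assigned 87.3% and 86.1% of the UMIs to free RNA in the DA rats and 78.0% and 78.2% in the LEW rats, under the assumption that the cells make none of these themselves. This share was higher in both DA rats. A gene is called carried above background below when its CPM in the cells was at least 2 times that of the background in both rats of the strain with the higher level, which held for 968 of the 6012 genes tested.

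Other cell types also left RNA in the selection. The Kupffer and macrophage list of 20 genes made up 0.287% of the UMIs in DA-1, 0.127% in DA-2, 0.0957% in LEW-1 and 0.254% in LEW-2, so it was not ordered by strain, and 1 of its genes, Itgal, was at 0 in DA-1. Of the selected cells, 36.6% in DA-1, 22.4% in DA-2, 17.3% in LEW-1 and 29.7% in LEW-2 held 2 or more Kupffer gene UMIs. A setting below leaves these cells out. The erythroid list of 9 genes stood at 0.206% in DA-1 and at 0.00506 to 0.00669% in the others, and the lymphocyte list of 14 genes at 0.0642% in LEW-2 and at 0.00646 to 0.011% in the others, with Cd2 and Ms4a1 at 0 in all 4 rats. Stellate and mesenchymal genes, a list of 19, made up 0.0813 to 0.118%, and cholangiocyte genes, a list of 10, 0.00244 to 0.00568%, with Cftr and Cldn4 at 0 throughout. Vascular endothelial genes, a list of 15, made up 0.0134 to 0.0204%, with Bmx and Cd34 at 0, and plasmacytoid and dendritic genes, a list of 10, made up 0.00325 to 0.00515%. The part of these cells in the strain differences was not tested, except where a value without them is given.

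LEW was compared with DA on the UMI sums of each rat, with edgeR's quasi-likelihood test over all genes and a threshold of 0.05 on the Benjamini-Hochberg adjusted p. Of the 6012 genes tested, 191 passed (3.18%). Of these, 66 were higher in LEW (1.1%) and 125 were higher in DA (2.08%). When the libraries were scaled on the genes carried above background alone, the median log2 fold change of all genes moved from 0.00 to -0.27, and 474 genes passed, 40 higher in LEW and 434 higher in DA. This scaling moves all genes toward DA together, so it cannot test the direction of the balance, whose size depended on it. Among the called genes carried above background, more were higher in LEW than in DA, as given below. With 1 rat left out its strain has 1 rat, which is assumed to vary like those of the other strain, so these fits rest on the spread between 2 rats. Fewer of the 191 passed again without DA-2, LEW-1 or LEW-2 than without DA-1, the rat with 101 cells. After subtraction of the free RNA 0 genes passed in edgeR, with 204 at an unadjusted p under 0.05, and DESeq2 on the counts as deposited called 72.

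**Figure D1:**
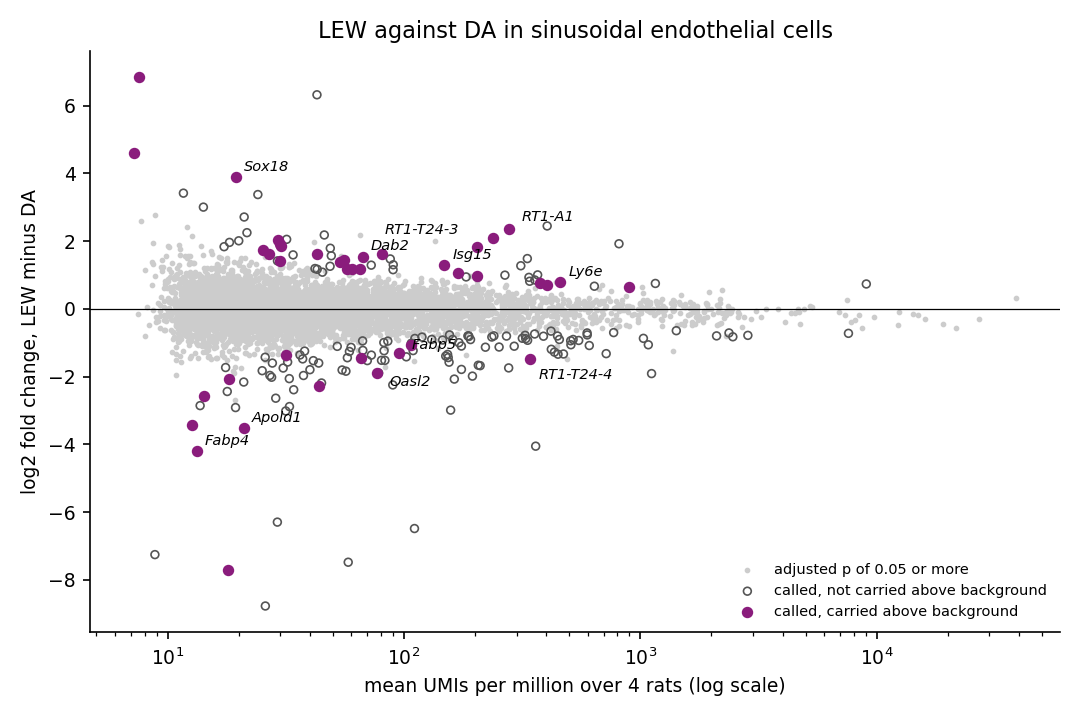
Log2 fold change (LEW minus DA) against the mean CPM of the 4 rats on a log axis, for every gene tested that the selection did not use. Filled points are the 40 called genes carried above background, open circles the 148 called genes that were not, and grey points the rest. Most called genes lie below 0, higher in DA.

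Leaving out Ramp2, Aqp1 and Fam167b, which chose the cells, 188 genes passed. Of these, 40 were carried above background, as were 16.1% of all genes tested, 27 higher in LEW and 13 higher in DA. All 968 genes carried above background had a median log2 fold change of 0.26, against 0.00 over all genes tested. They leaned to LEW as a whole, so the split of the 40 does not by itself set the called genes apart. The other 148 called genes included genes of hepatocytes. For example, Scd, a fatty acid desaturase gene, had 159 and 133 CPM in the DA cells and 44 and 74.1 CPM in the LEW cells, and in the background 165 and 138 CPM against 73.7 and 106 CPM. Fabp1, the liver fatty acid binding protein gene, had 6674 and 6349 CPM in DA cells and 11166 and 11973 CPM in LEW cells, and in the background 7594 and 7542 CPM against 13224 and 14566 CPM. In both genes the cells held less than the background of their own rat. Over the 187 called genes with a fit in the background, 177 had the same sign there. Cells and background share their libraries, and most UMIs of the cells were estimated to be free RNA, which in part fixes this count. No share over all genes is given beside it. The genes named below were taken from the 40.

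**Figure D2:**
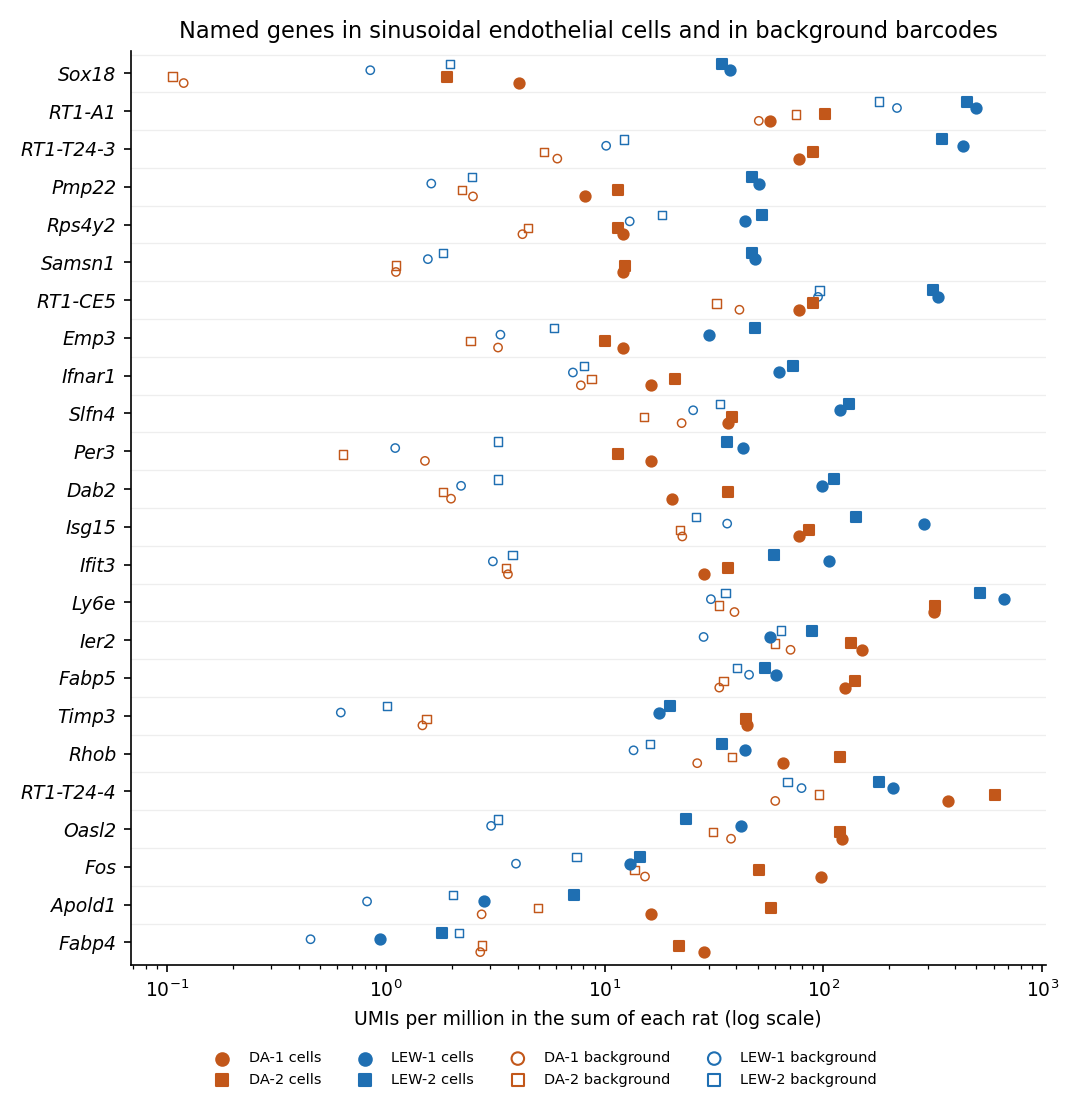
CPM in the cells (filled) and the background barcodes (open) of each rat, on a log axis, for the 24 named genes in order of their log2 fold change. Circles are rats 1 and squares rats 2, DA in orange and LEW in blue, and in each gene the filled orange and blue points do not overlap.

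Genes of the MHC, which present peptides to T cells and natural killer cells and are named RT1 in the rat, differed in both directions. Of 47 list members 25 were tested, of which 3 were higher in LEW and 3 were higher in DA, beside 3.18% of all genes in either direction. The median log2 fold change was 0.44 against 0.00 over all genes and 0.26 over those carried above background. With the scaling on genes carried above background it was 0.15 against -0.27 over all genes, with the same counts. The even split did not hold with 1 rat left out. More genes were then higher in LEW without DA-1, DA-2 or LEW-1, and more were higher in DA without LEW-2. RT1-A1, a class I gene, had 56.9 and 101 CPM in the DA rats and 500 and 454 CPM in the LEW rats. The LEW cells were thus far above both DA rats, and the log2 fold change was 2.35 ± 0.23 (SE, n = 2 rats per strain, edgeR adjusted p = 0.000116). Its background differed too, at 50.6 and 74.8 CPM in DA and 217 and 180 CPM in LEW, so the DA cells lay near theirs. The difference in the cells less that in the background was 0.76 ± 0.15 (edgeR adjusted p = 6.38e-05). RT1-CE5, another class I gene, had 77.2 and 89.8 CPM in DA and 333 and 316 CPM in LEW, a log2 fold change of 1.82 ± 0.20 (edgeR adjusted p = 0.000233). Its background also differed, at 41.3 and 32.5 CPM in DA and 94.5 and 95.9 CPM in LEW, and the difference in the cells less that in the background did not pass (0.33 ± 0.17, edgeR adjusted p = 0.645). RT1-T24-3, of a further class I group, had 77.2 and 89.8 CPM in DA and 434 and 349 CPM in LEW, with a log2 fold change of 2.09 ± 0.20 (edgeR adjusted p = 0.000116). The background of RT1-T24-3 was 6.08 and 5.29 CPM in DA and 10.2 and 12.3 CPM in LEW. RT1-T24-4, named for the same group, went the other way, with 370 and 610 CPM in DA and 209 and 179 CPM in LEW and a log2 fold change of -1.47 ± 0.22 (edgeR adjusted p = 0.00367). RT1-CE10 and RT1-A2 were also higher in DA but were not carried above background. These 2 are named because their list count is small. B2m, the light chain shared by class I molecules, and Tap1, the peptide transporter gene, did not pass, at log2 fold changes of -0.02 and -0.17. DA and LEW carry different MHC haplotypes, and the reads were aligned to a reference genome of another strain. RT1 genes are close copies of one another, so how reads were divided among them is uncertain, and its part in these values was not tested.

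The upstream sequences of the class I pair are shown because RT1-A1 and RT1-CE5 rose together in LEW and are close in sequence. They are the 250 bases before the annotated start in the RefSeq promoter table of the reference build GRCr8, which is not the build of the counts, and 14 of 20 named genes looked up had an entry. RT1-A1 lies at chr20:4906959-4907208 on the plus strand and RT1-CE5 at chr20:3484091-3484340 on the minus strand. At the best ungapped shift 88% of 209 bases were the same, against 35.8% of 151 bases for RT1-T24-3 and RT1-T24-4. Capitals mark the enhancer A motif, a run of 10 letters found in RT1-A1 alone of the pair, and CCAAT boxes (CCAAT, either strand), and the motifs do not overlap. The first is in 0.106% and the second in 34.3% of 27457 promoters of the same length.
RT1-A1: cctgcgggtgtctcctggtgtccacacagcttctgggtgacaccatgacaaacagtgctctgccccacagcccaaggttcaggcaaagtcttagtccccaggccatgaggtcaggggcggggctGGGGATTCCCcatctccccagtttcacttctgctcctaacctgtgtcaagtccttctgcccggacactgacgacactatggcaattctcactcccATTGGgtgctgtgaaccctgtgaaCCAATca
RT1-CE5: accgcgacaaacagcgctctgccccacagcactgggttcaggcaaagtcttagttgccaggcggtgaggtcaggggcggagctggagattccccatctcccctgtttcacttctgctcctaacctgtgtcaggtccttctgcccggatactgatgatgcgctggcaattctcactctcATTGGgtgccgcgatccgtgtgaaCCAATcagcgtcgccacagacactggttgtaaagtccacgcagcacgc

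Interferon response genes passed in both directions. Of 47 listed genes 33 were tested, of which 26 had a positive log2 fold change, 3 passed as higher in LEW and 2 as higher in DA, beside 3.18% of all genes in either direction. The median was 0.51 against 0.00 over all genes and 0.26 over those carried above background, as 21 of the list were. With the scaling on genes carried above background it was 0.23 against -0.27 over all genes. Isg15, which encodes a ubiquitin-like modifier, had 77.2 and 86.0 CPM in DA and 288 and 141 CPM in LEW. Both LEW rats were above both DA rats, LEW-1 by far the most (log2 fold change 1.28 ± 0.29, edgeR adjusted p = 0.0425). Ifit3, an RNA-binding antiviral gene, had 28.4 and 36.8 CPM in DA and 106 and 59.6 CPM in LEW (1.18 ± 0.29, edgeR adjusted p = 0.0464). Ly6e, a membrane protein gene that restricts viral entry, had 321 and 324 CPM in DA and 670 and 519 CPM in LEW (0.78 ± 0.17, edgeR adjusted p = 0.0263). These 3 calls rested on LEW-1: without it the log2 fold changes were 0.71, 0.71 and 0.64, with edgeR adjusted p of 0.293, 0.462 and 0.316. With the replicate number as a block they were also lost (edgeR adjusted p = 0.0893, 0.184 and 0.0807), which left the list with 2 genes, both higher in DA. Under stricter marker limits the list had 0 genes higher in LEW and 2 in DA, and at 20% mitochondrial UMIs 1 and 2. With cells holding Kupffer UMIs left out it had 4 and 2. With the scaling on genes carried above background Ifit3 (0.91, edgeR adjusted p = 0.0677) and Ly6e (0.47, 0.177) were lost as well. Ifit3 passed in 7 of 13 alternative settings, and Isg15 and Ly6e each in 9 of 13. These counts leave out the higher limit on UMIs and the subtraction of free RNA. Mx1 and Irf7 did not pass, at log2 fold changes of -0.03 and -0.21.

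Of the other genes of interferon signalling, the receptor chain gene Ifnar1, from the list of chemokine and cytokine receptors, had 16.3 and 21.0 CPM in DA and 62.7 and 72.3 CPM in LEW. The LEW rats were close to one another and the log2 fold change was 1.62 ± 0.29 (edgeR adjusted p = 0.00797). Slfn4, a Schlafen gene of myeloid cells, had 36.6 and 38.2 CPM in DA and 119 and 130 CPM in LEW (1.61 ± 0.24, edgeR adjusted p = 0.00227), and Kupffer cells of the same rats held 454 to 1877 CPM of it. With cells that had 2 or more Kupffer gene UMIs left out, its log2 fold change was 2.32. Oasl2, a gene of the oligoadenylate synthetase family, was higher in DA, with 122 and 119 CPM against 42.1 and 23.5 CPM in LEW (-1.90 ± 0.26, edgeR adjusted p = 0.00159). Ifi27l2b was the other gene of the interferon list that was higher in DA, not carried above background. The DA background of Oasl2, at 37.8 and 31.4 CPM, was also above the 3.03 and 3.26 CPM of LEW.

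The upstream sequences of Ifit3 and Oasl2 are shown because these genes of the same response differed in opposite directions. Capitals mark the interferon-stimulated response element (GAAA, any 2 bases and GAAA again, either strand), found in 3.29% of 27457 promoters of this length. Each of the pair holds it once, Ifit3 at chr1:241527076-241527325 on the plus strand and Oasl2 at chr12:47383186-47383435 on the minus strand (RefSeq, GRCr8). The same 10 letters stand in both, beginning 44 bases before the start of Ifit3 and 151 bases before that of Oasl2.
Ifit3: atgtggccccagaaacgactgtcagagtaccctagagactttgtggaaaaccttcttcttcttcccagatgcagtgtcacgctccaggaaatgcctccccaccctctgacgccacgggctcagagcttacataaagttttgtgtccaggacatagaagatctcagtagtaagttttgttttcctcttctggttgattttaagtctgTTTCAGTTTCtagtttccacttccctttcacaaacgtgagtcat
Oasl2: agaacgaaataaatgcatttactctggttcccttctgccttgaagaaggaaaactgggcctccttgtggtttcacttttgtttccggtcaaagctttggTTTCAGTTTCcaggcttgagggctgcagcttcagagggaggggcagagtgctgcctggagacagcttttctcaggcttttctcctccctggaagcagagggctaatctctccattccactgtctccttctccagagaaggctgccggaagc

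Immediate-early and dissociation response genes, which are switched on within minutes of a stimulus or of tissue handling, passed in one direction. Of 45 listed genes 35 were tested and 13 passed, each of them higher in DA, beside 2.08% of all genes, while 9 of the 35 had a positive log2 fold change without passing. The list had a median log2 fold change of -0.83 against 0.00 over all genes. The median of the list in the background barcodes was -0.77, so the background differed in the same direction. Of the 13, 3 were carried above background, as were 9 of the 35 tested. Fos, a subunit of the AP-1 transcription factor, had 97.5 and 50.6 CPM in DA and 13.1 and 14.5 CPM in LEW (-2.29 ± 0.39, edgeR adjusted p = 0.00574). Rhob, a small GTPase gene, had 65.0 and 119 CPM in DA and 44.0 and 34.3 CPM in LEW (-1.46 ± 0.28, edgeR adjusted p = 0.0134). Ier2, an immediate-early nuclear protein gene, had 150 and 133 CPM in DA and 57.1 and 88.6 CPM in LEW (-1.07 ± 0.25, edgeR adjusted p = 0.0363). In each, both DA rats lay above both LEW rats. The Rhob call was lost without DA-2 (-0.79, edgeR adjusted p = 0.378) and the Ier2 call without LEW-1 (-0.71, edgeR adjusted p = 0.348), and both were lost with the replicate number as a block (0.0736 and 0.1) and in DESeq2 (adjusted p = 0.143 and 0.189). The list count was 19 without DA-1 and 7 without LEW-1, the block left 9 and DESeq2 called 5. The other 10 members that passed, Atf3, Nr4a1, Zfp36, Ppp1r15a, Btg2, Jun, Cebpb, Jund, Dusp1 and Btg1, were not carried above background. Jun, for example, had 179, 246, 84.3 and 103 CPM in the cells and 148, 171, 61.7 and 97.0 CPM in the background of DA-1, DA-2, LEW-1 and LEW-2. The part of tissue handling in these values was not tested.

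The upstream sequence of Ier2 is shown because it alone of the genes Ier2, Rhob and Apold1, which were higher in DA and had a promoter entry, held one of the motifs searched for immediate-early genes. These were the cAMP response element (TGACGTCA, a palindrome), present in 1.7% of 27457 promoters of this length, and the CArG box, present in 1.5%. The former, in capitals, begins 66 bases before the start, in chr19:40399123-40399372 on the plus strand (RefSeq, GRCr8).
Ier2: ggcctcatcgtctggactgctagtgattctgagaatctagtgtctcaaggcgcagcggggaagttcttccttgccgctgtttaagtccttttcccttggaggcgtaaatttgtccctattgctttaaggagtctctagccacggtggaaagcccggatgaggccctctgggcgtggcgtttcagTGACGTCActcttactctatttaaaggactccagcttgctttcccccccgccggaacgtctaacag

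Among the named genes the largest differences toward DA were in Fabp4 and Apold1. Of 35 listed genes 19 were tested in the list of caveolae, fenestrae and lipid handling, and 3 were higher in DA and carried above background, and 2, Ephx2 and Cavin3, were higher in LEW without being so carried, beside 2.08% and 1.1% of all genes. Fabp4, a fatty acid binding protein gene of capillary endothelium, had 7 and 46 UMIs in the DA rats and 1 UMI in each LEW rat. The ratio of the sums was 18.4 with an exact 95% counting interval of 4.84 to 156, and the edgeR adjusted p was 0.0042. Apold1, an endothelial gene of vessel growth that responds early to stimuli, had 16.3 and 57.8 CPM in DA and 2.81 and 7.23 CPM in LEW (-3.52 ± 0.59, edgeR adjusted p = 0.00752), on 4, 121, 3 and 4 UMIs. DA-2 gave most UMIs of both genes, and without it neither had enough for a fit. Under stricter marker limits the Fabp4 call was lost (edgeR adjusted p = 0.0518). Fabp5, of the same family as Fabp4, had 126 and 139 CPM in DA and 60.9 and 54.2 CPM in LEW (-1.32 ± 0.22, edgeR adjusted p = 0.005). Here the background went the other way, at 33.4 and 34.9 CPM in DA and 45.7 and 40.3 CPM in LEW. In the extracellular matrix list, of 22 tested, 2 passed, both higher in DA, beside 2.08% of all genes. Of these Timp3, an inhibitor of metalloproteinases, had 44.7 and 44.4 CPM in DA and 17.8 and 19.9 CPM in LEW. Its log2 fold change was -1.36 ± 0.33 (edgeR adjusted p = 0.0396). The Timp3 call was lost without DA-2 (-1.35) and without LEW-1 (-1.20). It was also lost with the block (-1.32, edgeR adjusted p = 0.133) and with cells holding Kupffer UMIs left out (-0.91, 0.23). These losses are not all, since Timp3 passed in 7 of 12 alternative settings. That count leaves out the higher limit on UMIs and the subtraction of free RNA.

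In the lists of endothelial identity and endocytosis 1 gene each passed, beside 3.18% of all genes. With the scaling on genes carried above background 3 endocytic genes passed, 2 of them higher in DA, and the identity count stayed at 1. Both counts rose without DA-1. Of 37 identity genes tested besides the markers, 36 were carried above background and 1 passed, with a median log2 fold change of 0.23 against 0.26 over all 968 genes carried above background. That gene was Sox18, a transcription factor gene of vessel development, with 4.06 and 1.91 CPM in DA and 37.5 and 34.3 CPM in LEW on 1, 4, 40 and 19 UMIs (3.89 ± 0.48, edgeR adjusted p = 0.000614). The ratio of the sums was 17 with an exact 95% counting interval of 6.90 to 54.4. The call was lost without LEW-1 (3.82, edgeR adjusted p = 0.146) and without DA-2 (3.0, 0.0547). Of 22 endocytic and scavenger receptor genes, 1 passed. Dab2, an adaptor for clathrin-mediated uptake, had 20.3 and 36.8 CPM in DA and 98.3 and 112 CPM in LEW (1.54 ± 0.27, edgeR adjusted p = 0.007). The receptor genes themselves gave no call, and Stab2, with 12.2 and 25.3 CPM in DA and 36.5 and 36.2 CPM in LEW, did not pass (0.56 ± 0.35, edgeR adjusted p = 0.451). Of the other genes used above to check the label, none of Ctsl (0.49 ± 0.20), Oit3 (0.42 ± 0.22), Cdh5 (0.21 ± 0.25) and Eng (-0.09 ± 0.18) passed.

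**Figure D3:**
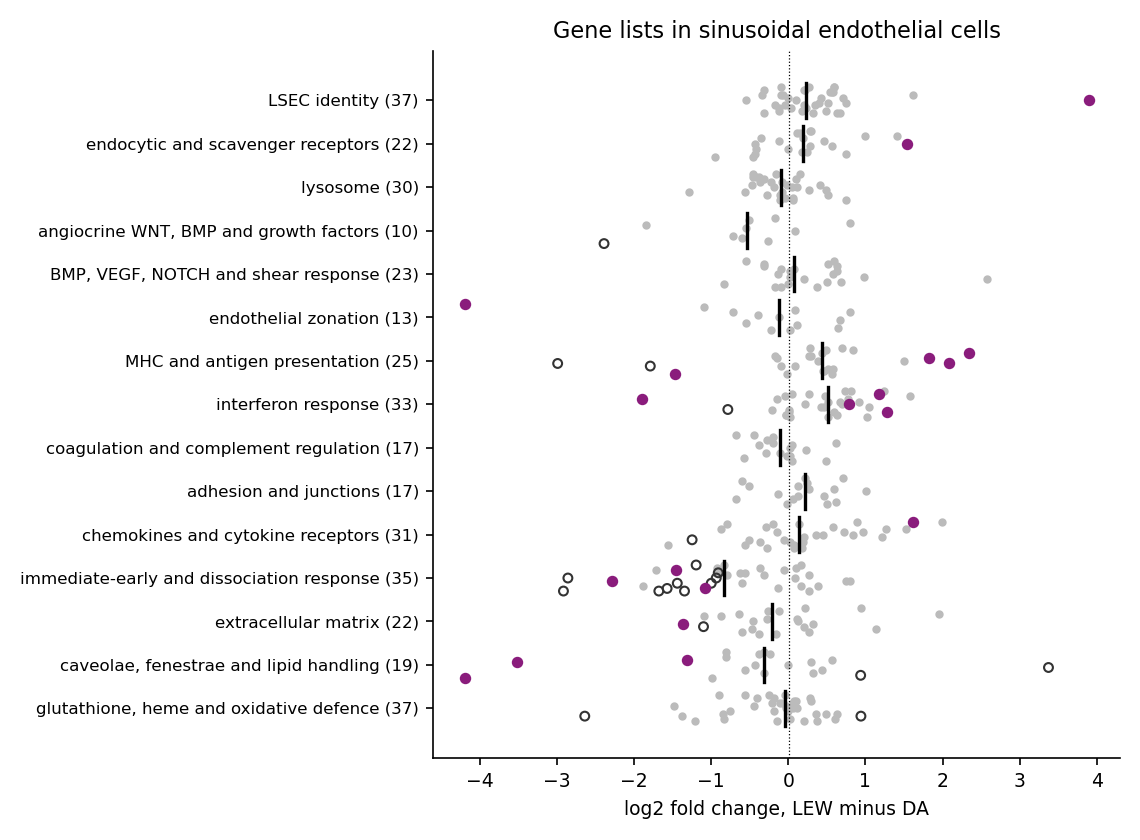
Log2 fold change (LEW minus DA) of every tested member of 15 gene lists, with the number tested in brackets. Grey points did not pass, open circles passed but were not carried above background, filled points passed and were carried, bars mark list medians and the dotted line the median of all genes. In these cells the immediate-early median lies left of the line and the interferon and MHC medians right of it.

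In 4 lists no gene passed in edgeR, nor in DESeq2, beside 3.18% of all genes in edgeR. Not passing does not show that a gene was the same, since 14% of genes simulated with a log2 fold change of 1 were recovered. Over all 6012 genes tested, 1019 were at an unadjusted p under 0.05, the base for the unadjusted counts that follow. The lysosome list had 30 genes tested, a median log2 fold change of -0.09 and 5 at an unadjusted p under 0.05. The list of BMP, VEGF, NOTCH and shear response had 23 tested, a median of 0.07 and 7 at that p, coagulation and complement regulation 17, -0.11 and 4, and adhesion and junctions 17, 0.21 and 6. With the scaling on genes carried above background 4 lysosome, 3 coagulation and 1 adhesion gene passed, each higher in DA. Without DA-1 there were 5 calls in the BMP, VEGF, NOTCH and shear list, 2 in coagulation and 1 in lysosome. In the angiocrine list of 10 tested genes Ccn1 alone passed, higher in DA and not carried above background, and the median was -0.53. Of 13 zonation genes 1 passed, Fabp4. Of 37 genes of glutathione, heme and oxidative defence 1 passed in each direction, neither carried above background.

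The other genes named by the size of their difference were higher in LEW. Pmp22, a membrane protein gene of the tetraspan family, had 8.13 and 11.5 CPM in DA and 50.6 and 47.0 CPM in LEW (2.05 ± 0.36, edgeR adjusted p = 0.007), while its background stayed at 1.61 to 2.50 CPM in all 4 rats. Emp3, of the same family, had 12.2 and 10.0 CPM in DA and 29.96 and 48.8 CPM in LEW (1.75 ± 0.41, edgeR adjusted p = 0.0363). Its call was lost without DA-2 (1.52, 0.29) and without LEW-2 (1.40, 0.156). Samsn1, an adaptor gene best known from B cells, had 12.2 and 12.4 CPM in DA and 48.7 and 47.0 CPM in LEW (1.84 ± 0.35, edgeR adjusted p = 0.0116), and lost its call without DA-2 (1.87, 0.0951). Rps4y2, a ribosomal protein gene, had 12.2 and 11.5 CPM in DA and 44.0 and 52.4 CPM in LEW (1.92 ± 0.36, edgeR adjusted p = 0.0115), with a background of 4.21 and 4.47 CPM against 13.0 and 18.3 CPM, and lost its call without DA-2 (1.85, 0.107). The clock gene Per3 had 16.3 and 11.5 CPM in DA and 43.1 and 36.2 CPM in LEW (1.61 ± 0.36, edgeR adjusted p = 0.0297). It lost its call without DA-2 (1.20), without LEW-1 (1.5) and with the block (1.49, edgeR adjusted p = 0.116). Rps4y2 was also lost under stricter marker limits (1.55, edgeR adjusted p = 0.0712). For Per3 and Emp3 the losses named here are not all. Per3 passed in 7 of 12 alternative settings, Emp3 in 9 of 12 and Rps4y2 in 10 of 12. These counts leave out the higher limit on UMIs and the subtraction of free RNA.

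Whether the cells differed from the background barcodes of the same rats was tested as the strain difference in the cells less that in the background, with the rat as a block. Of 11471 genes tested, 167 passed (1.46%). The 167 include the markers Fcgr2b, Gpr182, Fam167b and Ramp2, which chose the cells, so their values are a description without a test. Among the 40 called genes carried above background, 13 passed, a count that the choice of the 40 on their strain difference and their excess over background in part fixes. RT1-T24-4 stood at 60.2, 95.6, 79.4 and 68.6 CPM in the background, where the strains overlapped, and the difference of the differences was -1.37 ± 0.14 (edgeR adjusted p = 1.01e-19). Fabp5 followed at -1.65 ± 0.24 (edgeR adjusted p = 7.55e-09), then Ly6e at 0.88 ± 0.13 (2.66e-08) and RT1-A1 at 0.76 ± 0.15 (6.38e-05). For Ifnar1 the value was 1.81 ± 0.38 (edgeR adjusted p = 0.000539), for RT1-T24-3 1.07 ± 0.23 (0.000701) and for Pmp22 2.29 ± 0.59 (0.0126). The smallest of these p-values rest mainly on the spread that edgeR shares across genes, not on that between 2 rats per strain. For Oasl2 the difference was 1.5 ± 0.33 (edgeR adjusted p = 0.00111) in the direction of LEW, since its background differed between strains by more than the cells did. The values of RT1-T24-4 and Fabp5 passed with each rat left out in turn. Without LEW-1 those of Ly6e (0.50, edgeR adjusted p = 0.477), RT1-T24-3 (0.72, 0.878), Oasl2 (0.84, 1), Pmp22 (1.79, 0.268) and Ifnar1 (1.76, 0.0734) were lost. Without DA-2 those of RT1-A1 (1.11, 0.142), Pmp22 (2.93, 0.29) and Ifnar1 (2.09, 0.121) were lost, without LEW-2 that of RT1-A1 (0.65, 0.0874) and without DA-1 that of Pmp22 (2.07, 0.0692). The count was 259 without DA-1, 71 without DA-2, 108 without LEW-1 and 95 without LEW-2.

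Kupffer cells of the same rats, 1265 in all, were used to ask which strain differences were unlike those of the neighbouring macrophage. Of 7499 genes tested, 59 passed (0.787%), and 4 of the named genes were among them. The 59 include Lyve1 and Colec11, which the selection used, so their values are a description without a test. RT1-T24-4 had 170 and 274 CPM in the DA Kupffer cells and 293 and 243 CPM in the LEW Kupffer cells. The Kupffer cells of DA-2 and both LEW rats were thus close together (edgeR adjusted p = 0.69 within Kupffer cells), and the test of the difference gave -1.74 ± 0.17 (edgeR adjusted p = 3.42e-20). That last p, too, rests mainly on the spread shared across genes. RT1-T24-3 rose in Kupffer cells too, from 81.0 and 66.7 CPM to 148 and 142 CPM, and the difference was 0.99 ± 0.22 larger in the endothelial cells (edgeR adjusted p = 0.00238). Oasl2 had 202 and 182 CPM in DA and 138 and 116 CPM in LEW Kupffer cells, a smaller difference than in the endothelial cells (-1.39 ± 0.26, edgeR adjusted p = 4.89e-05). Fabp4 rested on 1, 3, 10 and 0 UMIs in the Kupffer cells, and its value of -5.84 turned to 0.42 without LEW-1. Without LEW-1 the count of 59 fell to 9, and without DA-2 to 26. Of the 4, the RT1-T24-4 value alone passed with each rat left out in turn. The call for RT1-T24-3 was lost without DA-2 (1.39, edgeR adjusted p = 0.131) and without LEW-1 (0.99, 0.276), and that for Oasl2 without DA-2 (-1.28, 0.229), LEW-1 (-1.66, 0.0795) or LEW-2 (-1.12, 0.0694). For RT1-A1, Fos and Isg15 the strain differences were not shown to differ between the cell types (edgeR adjusted p = 0.263, 0.916 and 0.982).

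Nuclei were a reading that the selection of the cells had not used. With the same markers at 3 UMIs or more, 110 and 148 nuclei of the DA rats and 98 and 118 of the LEW rats were taken. Of 3857 genes tested, 11 passed (0.285%), with 378 at an unadjusted p under 0.05. The count was 29 in DESeq2, 99 with the replicate block, and 75, 116, 54 and 55 without DA-1, DA-2, LEW-1 and LEW-2. Of the 40 called genes carried above background in the cells, 29 were tested in nuclei, 23 had the same direction and 2 passed. Over the 3451 genes tested in both, 52.1% had the same direction. RT1-T24-3 had 155 and 256 CPM in the DA nuclei and 762 and 661 CPM in the LEW nuclei (1.80 ± 0.30, edgeR adjusted p = 0.0193). RT1-T24-4 had 1721 and 1792 CPM in DA and 327 and 402 CPM in LEW (-2.23 ± 0.27, edgeR adjusted p = 0.00237). The strains were apart in each gene, as in the cells, and both calls held in all 9 alternatives for nuclei.

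Of the 24 named genes, 18 had a value in nuclei, 16 of them in the direction of the cells. In 12 of the 18 the strains were also apart in nuclei in that direction, as in 22.1% of the 3451 genes, and Slfn4, Dab2, Ifnar1, Ly6e, Ier2 and Ifit3 were not. RT1-A1 had 251 and 356 CPM in DA nuclei and 762 and 573 CPM in LEW nuclei (1.16 ± 0.29, edgeR adjusted p = 0.119), and RT1-CE5 had 96.2 and 192 CPM against 435 and 397 CPM (1.53 ± 0.32, 0.0686). Timp3 had 198 and 148 CPM in DA and 39.5 and 44.1 CPM in LEW (-1.99 ± 0.39, edgeR adjusted p = 0.0686). Apold1 had 492 and 124 CPM in DA and 16.9 and 58.8 CPM in LEW (-2.91 ± 0.67, edgeR adjusted p = 0.1). Rhob had 497 and 184 CPM against 50.8 and 108 CPM (-2.02 ± 0.50, edgeR adjusted p = 0.117), and Fos 305 and 208 CPM against 0 and 113 CPM (-2.06 ± 0.71, 0.339). None of these, from RT1-A1 to Fos, passed in nuclei. Ier2 overlapped, with 342 and 300 CPM in DA nuclei and 130 and 407 CPM in LEW nuclei (-0.21 ± 0.41, edgeR adjusted p = 0.934). Of 28 immediate-early genes tested in nuclei 0 passed in edgeR, with 10 at an unadjusted p under 0.05 and 1 called in DESeq2, beside 0.285% of all genes in edgeR. At that unadjusted p were 378 of all 3857 genes. The median of the immediate-early list in nuclei was -0.58 against 0.01 over all genes, with the sign of the cells. Of the interferon genes, Oasl2 had 481 and 476 CPM in DA nuclei and 271 and 196 CPM in LEW nuclei (-1.01 ± 0.28, edgeR adjusted p = 0.166), apart as in the cells. Ly6e and Ifnar1 had the sign of the cells at 0.20 ± 0.27 and 0.15 ± 0.28, Ifit3 was at -0.09 ± 0.40, and the list median was -0.09. Isg15 and Samsn1 had too few UMIs for a fit, Isg15 with 85.5 and 44.0 CPM in DA nuclei and 11.3 and 49.0 CPM in LEW nuclei and Samsn1 with 26.7 and 39.99 CPM against 22.6 and 0 CPM, neither in the order of the cells. Fabp4 also had too few UMIs for a fit, with 7, 1, 1 and 3 in DA-1, DA-2, LEW-1 and LEW-2. It stood at 37.4 and 4.00 CPM in DA nuclei and 5.64 and 14.7 CPM in LEW nuclei, so the strains overlapped. The median of the MHC list was -0.13 in nuclei and that of the identity list -0.30, each of the opposite sign to the cells. Of 17 MHC genes tested in nuclei 3 passed in edgeR, beside 0.285% of all genes, and 4 were called in DESeq2. Dab2, at -0.29 ± 0.39, had the opposite sign. Of the marker genes, given as a description, Lyve1 had 3672 and 2975 CPM in DA nuclei and 1530 and 1470 CPM in LEW nuclei, an order that the cells did not show. Aqp1 was lower in LEW in both. Fam167b and Bmp2, higher in LEW cells, were lower in LEW nuclei, at 395 and 274 CPM against 444 and 608 CPM in DA for Fam167b and at 1135 and 1347 CPM against 1678 and 1448 CPM for Bmp2. Fcgr2b had 1684 and 2184 CPM in DA nuclei and 1693 and 1524 CPM in LEW nuclei, and Ramp2 321 and 272 CPM against 344 and 225 CPM, without the order of the cells.

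**Figure D4:**
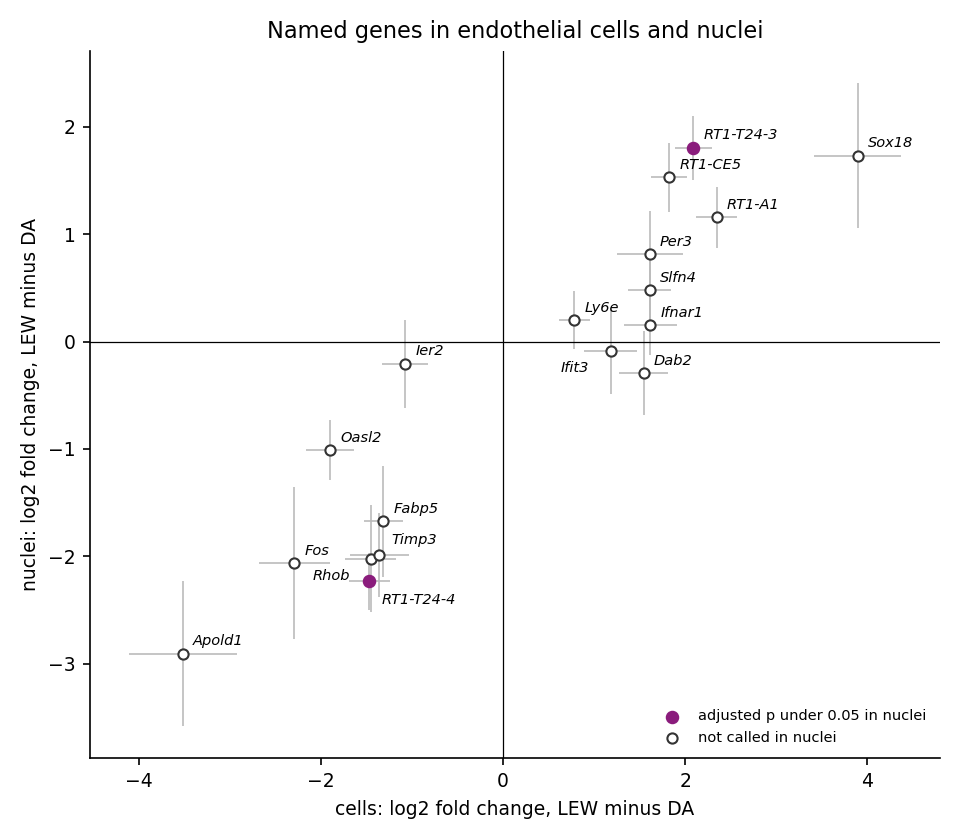
Log2 fold change (LEW minus DA) in nuclei against that in cells for the 18 named genes with a value in both, with bars of 1 standard error. Filled points passed in nuclei. Ifit3 and Dab2 fall to the other side of 0, and RT1-T24-3 and RT1-T24-4 passed in both.

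The immune-enriched libraries gave 216 cells by the same markers from the DA rat and 286 from the LEW rat, with 1 rat per strain and hence no test. Of the 24 named genes, 23 differed in the direction of the TLH cells, as did 53.6% of 5986 genes, and Emp3 did not (98.3 CPM in DA, 66.6 in LEW). RT1-T24-4 had 2631 CPM in DA and 391 CPM in LEW, RT1-T24-3 254 and 985 CPM, and Fabp4 186 and 33.8 CPM. Hepatocyte RNA was lower there than in TLH, with the hepatocyte list at 0.368% of the UMIs in the DA cells and 2.69% in the LEW cells.

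The share of kept TLH cells that met the selection was 4.30% in DA-1 (exact 95% binomial interval 3.51 to 5.20%), 8.29% in DA-2 (7.76 to 8.84%), 7.95% in LEW-1 (7.25 to 8.70%) and 5.78% in LEW-2 (5.06 to 6.56%). The strains overlapped (exact permutation test over rats, two-sided, p = 1, with 0.333 the smallest p that 2 rats against 2 allow). At 3000 UMIs or more they did not overlap, with 1.66% in DA-1, 3.93% in DA-2 and 6.10% in each LEW rat (p = 0.333 in the same exact test), on 3 cells in DA-1. Dissociation and the limit on UMIs can set this share.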

How the data were processed

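The authors aligned TLH, immune-enriched and nuclei reads with Cell Ranger 3.1.0 (submitters' processing notes; the label of the reference names rat build 6.0) and deposited the UMI counts of each barcode unnormalized, ahead of their own cell filters. TLH counts carry no gene names. Names were taken by row from the gene list of a nuclei library, which has the same 32883 rows, so they rest on equal row order. TLH libraries used 3′ version 2 chemistry. TLH barcodes were not named, so barcodes shared between those libraries could not be counted. Nuclei libraries shared 8 to 24 barcodes per pair. The sections of Wistar liver were not used here.

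Cells were kept at 2000 or more UMIs and 40% or fewer mitochondrial UMIs (nuclei 1000 and 10%, immune-enriched 1000 and 50%). No doublet caller was run. The gene lists and members were chosen with earlier results of these data known. UMI sums per rat, the replicate, were tested with edgeR 4.0.16 in R 4.3.3 (filterByExpr, TMM, robust quasi-likelihood, Benjamini-Hochberg at 0.05), which gave every adjusted p unless DESeq2 1.42.0 is named. Rats of a strain are separate animals, but 2 per strain leave the spread poorly known. Shares were tested by exact permutation with scipy 1.17.1. Kupffer cells had 5 or more UMIs and 0.2% or more of Marco, Cd5l, Clec4f and Vsig4 and fewer than 3 UMIs of the 8 markers. Steps were tested on simulated counts. Of 200 genes given a log2 fold change of 1, 28 were recovered in cells and 31 in nuclei. With a log2 fold change of 2, 191 and 185 of 200 were recovered. In the tests less background and less Kupffer cells, 125 and 135 of 200 were recovered at that size. The changed genes were drawn from those with more than a few UMIs in every rat, at a spread set in advance. Recovery of genes with few UMIs in a rat was not tested. A gene that did not pass may thus still differ.

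Named are, in each direction, the 10 genes with the largest absolute log2 fold change that passed, did not overlap between strains, were carried above background and had a mean of 20 CPM or more, and list members that passed and were carried above background. In DA 8 genes met the first part. Genes named by count alone or as examples were chosen after their values were seen. The strain tests in cells and nuclei were repeated with other size factors, no filter, DESeq2, the replicate block, each rat left out and other limits on cells or, in nuclei, on markers. The tests less background and less Kupffer cells were repeated with each rat left out, the former also with background barcodes without a marker UMI. Depth is the UMI total per sum, given with the values.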

Additional observations from a re-analysis of the deposited data

Results flagged for a closer look

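Lyve1 and Colec11, which the selection used, are in the count given here. Strain differences that were unlike in endothelial and Kupffer cells of the same rats, by the interaction test of edgeR, were found for 59 genes. Among the named genes these were RT1-T24-4, with a log2 difference of -1.74 in the endothelial cells less that in the Kupffer cells, RT1-T24-3 (0.99), Oasl2 (-1.39) and Fabp4 (-5.84). RT1-T24-4 is the one whose value passed in each fit that left out 1 rat, at -1.74 to -1.58, and the strains were also apart for it in nuclei, at 1721 and 1792 CPM in DA against 327 and 402 CPM in LEW. The Fabp4 value rested on 14 UMIs in the Kupffer cells, 10 of them from LEW-1. No group held enough rats for a test of single outlying samples.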

How the results depend on the processing

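Without each rat in turn the count of genes in the cells ran from 171 to 498 against 191, in nuclei from 54 to 116 against 11, in cells less background from 71 to 259 against 167 and in cells less Kupffer cells from 9 to 72 against 59. In the cells the count was 474 with TMM over genes carried above background, 72 in DESeq2, 112 with the replicate block, 4 at 3000 UMIs or more, where DA-1 kept 3 cells, and 0 after subtraction of free RNA, which left 3250 genes to test. In nuclei it was 29 in DESeq2, 98 without a filter on low counts and 99 with the replicate block. The count without the filter in the cells was 284, and other settings stayed within 1.5 times of the main count: 199 with RLE factors, 137 with stricter markers, 161 at 20% mitochondrial UMIs, 212 without cells holding Kupffer UMIs, 168 with cells thinned to 2000 UMIs. The numbers of replicates are not stated to mark a shared batch. Deviations of DA-1 and LEW-1 correlated at -0.14 over 4409 genes. The deviation of each rat mirrors that of the other rat of its strain, and DA-1 had the fewest UMIs. This correlation thus cannot show whether a batch was shared, which was not tested. The main strain test did not use the replicate number. Of the 24 named genes, 17 kept their call with the block, 24 without DA-1, 15 of 22 with a value without DA-2, 17 without LEW-1, 23 without LEW-2, 15 of 23 with a value under stricter markers and 10 of 13 in DESeq2, and 12 kept it in every one of the settings fitted other than the last 2 below. None turned direction. At 3000 UMIs 0 of 12 with a value and after subtraction of free RNA 0 of 24 kept their call in edgeR, with directions as before. The Fabp4 difference between endothelial and Kupffer cells ran from -6.80 to 0.42 with each rat left out in turn, and it turned sign without LEW-1. The difference in the share of cells between strains, 0.57 percentage points, turned to -0.156 at 20% mitochondrial UMIs and was 1.71 with stricter markers and 3.31 at 3000 UMIs or more. The cause of these changes was not tested. The sums of the 4 rats held 246047 to 2093287 UMIs, the fewest in DA-1.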
